A study of Drosophila melanogaster with 2 samples.

Results

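The nuclear transfer RNA (tRNA) genes of Drosophila melanogaster were examined for binding of CG14441, an uncharacterised protein, in peak lists from chromatin immunoprecipitation followed by sequencing (ChIP-seq). Members were all genes of the Ensembl annotation on the 6 main arms whose symbol starts with tRNA:, which leaves out the mitochondrial tRNA genes. There were 295 of 18164 annotated genes, transposable elements not counted. Of these, 290 were annotated as tRNA and 5 as pseudogene. The choice used symbols and positions, not measured values, but it was made with earlier results of these data known. The study had 1 group of 2 biological replicates: whole embryos 0 to 24 h old of the strain CG14441-GFP, which carries an insertion that yields a CG14441-eGFP fusion. Chromatin was sheared by sonication (fragments of 200 to 800 bp) and precipitated with an antibody against GFP. No second strain or condition was compared, and whole embryos mix all cell types, so a site used in few cells and a site used weakly in many cannot be told apart. The labels do not say whether untagged CG14441 was present beside the fusion.

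tRNA genes are short genes transcribed by RNA polymerase III. Their promoter lies inside the gene, in an A box and a B box that the factor TFIIIC recognises. TFIIIC then places TFIIIB just upstream of the start, and TFIIIB recruits the polymerase. Most tRNAs are encoded by several identical copies, some scattered through the genome or inside introns and some in tight clusters.

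The main set was the authors' conservative thresholded list for the whole series, with 5115 peaks on the arms and a median signal of 116. Signal is the peak caller's value on a scale that is not stated, so it is compared within a list only. Depth is unknown, because peak lists carry no counts of reads. With 1 group there is no test between conditions, and shares are given beside those of other genes as descriptions.

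CG14441 peaks rarely stood at tRNA genes. A main-set summit lay within 100 bp of the start of 2 of the 295 genes (0.678%), against 4.87% of 17869 other genes of any type. Within 500 bp there were 17 (5.76%), against 14.2% of other genes, and within 1000 bp there were 36 (12.2%), against 18.1%. By distance class, 2 genes had their nearest summit at 0 to 100 bp, 15 over 100 and up to 500 bp away and 19 over 500 and up to 1000 bp away, and the other 259 (87.8%) had it farther away. Neighbouring tRNA genes shared peaks, so the nearest peaks of the 36 genes were 26 distinct peaks, and those of the 17 were 15. A further 2 main-set peaks within 1000 bp were the nearest of no tRNA gene, at 857 bp from tRNA:Thr-AGT-1-4 (signal 105) and 946 bp from tRNA:Ile-AAT-1-3 (signal 21.7). Counts of peaks below are of the 26 nearest ones. No summit lay inside a tRNA gene, and 2 tRNA genes overlapped a main-set peak at all.

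Other RNA gene types had similar shares within 500 bp but not all within 1000 bp. Within 500 bp a main-set summit was found for 5.95% of 269 snoRNA genes and 5.37% of 3261 genes annotated as ncRNA, against 16.7% of 13945 protein-coding genes. The 5.76% of tRNA genes stood between the first pair and below the last. Within 100 bp the shares were 1.12% for snoRNA, 1.04% for ncRNA and 5.95% for protein-coding genes. Within 1000 bp they were 18.2% for snoRNA, above the 12.2% of tRNA genes, 10.2% for ncRNA and 20.3% for protein-coding genes. No test of these differences was made.

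**Figure D1:**
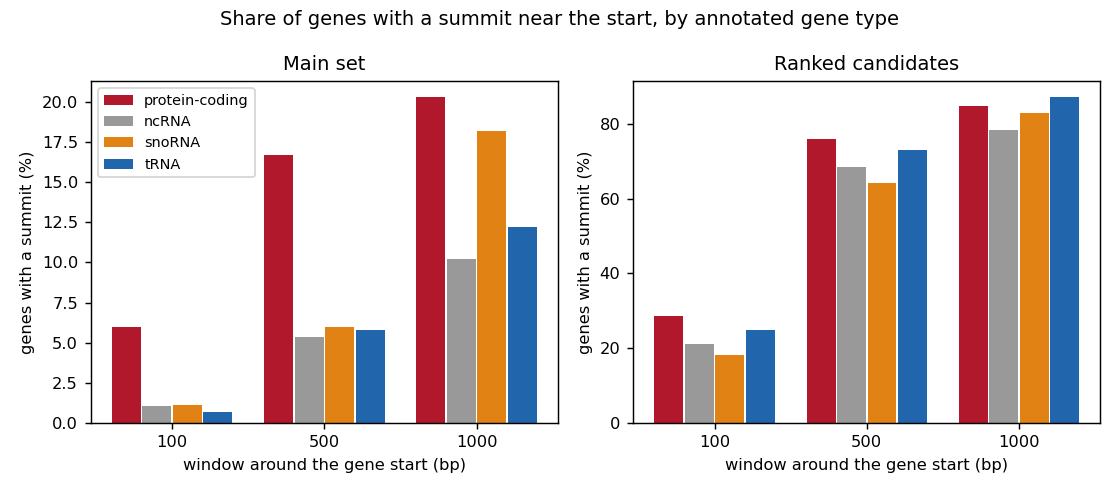
Share of genes (%, vertical axes starting at 0) with a main-set summit (left) or a ranked candidate summit (right) within 100, 500 or 1000 bp of the gene start, for 4 annotated gene types. In the main set the tRNA bars (0.678%, 5.76% and 12.2%) stay below the protein-coding bars in each window, while at 1000 bp the candidate bar of tRNA genes (87.1%) is the highest of the 4.

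The pair of tRNA genes with a summit within 100 bp are shown with 150 bases before and 20 bases after the gene, from the RefSeq copy of the dm6 assembly, on the strand of the gene, 5′ to 3′. They are printed because they are the members that a main-set peak overlaps. Capitals mark the tRNA gene. tRNA:Pro-TGG-1-1 is at chr3R:17618090-17618331 on the minus strand, and its summit is base 141 of the run. tRNA:Thr-AGT-1-4 is at chr3R:16431790-16432033 on the plus strand, and its summit is base 74.
tRNA:Pro-TGG-1-1: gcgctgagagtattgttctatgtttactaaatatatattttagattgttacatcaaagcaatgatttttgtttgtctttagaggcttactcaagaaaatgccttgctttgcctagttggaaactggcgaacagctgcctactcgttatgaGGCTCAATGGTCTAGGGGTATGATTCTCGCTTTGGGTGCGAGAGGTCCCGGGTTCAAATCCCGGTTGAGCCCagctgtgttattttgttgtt
tRNA:Thr-AGT-1-4: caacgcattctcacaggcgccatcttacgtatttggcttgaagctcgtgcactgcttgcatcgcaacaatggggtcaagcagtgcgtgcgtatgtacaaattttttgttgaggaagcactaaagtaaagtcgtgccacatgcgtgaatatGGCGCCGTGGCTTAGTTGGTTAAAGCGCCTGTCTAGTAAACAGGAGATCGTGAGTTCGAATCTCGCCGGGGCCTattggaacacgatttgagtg
The letters GTTCGA, an exact form of the B box core, stand at position 54 of the Thr gene and not in the Pro gene. The Pro gene reads GTTCAA instead. Only GTTCGA was searched for, so a gene without it may still hold a B box. Among all members, 164 of 295 (55.6%) hold these letters on their own strand.

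tRNA:Pro-TGG-1-1 (gene at 3R:17618110-17618181), which encodes a proline tRNA, had its summit 10 bp upstream of the start (-10). The peak (3R:17618029-17618352) covered the whole gene. Its series signal was 90.3, and the replicates' own lists gave 30.1 in replicate 1 and 57.7 in replicate 2 (mean 43.9 ± 19.5, SD, n = 2). The replicates therefore differed by nearly as much as the lower value. tRNA:Val-CAC-1-1 shared this peak at 430 bp downstream of its own start. The nearest protein-coding TSS (transcription start site), that of CG14324, was 608 bp from the summit.

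tRNA:Thr-AGT-1-4 (3R:16431940-16432013), a threonine tRNA gene in an intron of CG31279 on the same strand, had its summit 77 bp upstream (-77). The peak (3R:16431701-16432024) also covered the whole gene. Its series signal was 69.3, with 36.0 in replicate 1 and 41.1 in replicate 2 (mean 38.6 ± 3.61, SD, n = 2). A TSS of CG31279 lay 334 bp from the summit. Both signals were below the main-set median, and neither peak had a counterpart within 100 bp in the thresholded set of either replicate alone.

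Both genes belong to sets of identical copies, so the copies can be set beside each other. The Pro-TGG sequence occurs 5 times, and none of the other 4 copies had a main-set peak that close (within 1000 bp). The Thr-AGT sequence occurs 7 times. Of its other 6 copies, tRNA:Thr-AGT-1-1 had one at 913 bp and 5 had none. Weaker candidates stood within 100 bp of 5 of those 6 Thr copies, at 38 to 90 bp, and within 100 bp of 2 of the 4 Pro copies. Identical gene bodies thus went with different calls, and the flanking sequences of the copies were not compared. How the authors treated reads that match several places is not given in the sources used here. Over all members, the 295 genes held 100 distinct sequences, 57 genes had a sequence of their own, and the largest set of copies numbered 13. Of the 57 genes with a sequence of their own, 5 (8.77%) had a summit of the main set within 500 bp. Of the 238 genes with an identical copy, 12 did (5.04%).

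Where peaks did stand near a tRNA gene, a protein-coding TSS was often nearer to the summit. This was so for 10 of the 17 genes within 500 bp and for 21 of the 36 within 1000 bp. With only the 5′ ends of protein-coding genes as TSSs, the 21 became 15 of the 36. The counts below use the TSSs of all transcripts. Counted as peaks, 13 of the 26 were nearer to a protein-coding TSS, at 22 to 557 bp from it (median 128 bp). The other 13 were nearer to the tRNA start, with the closest protein-coding TSS 334 to 53068 bp away (median 7067 bp). The peaks nearer to a coding TSS had signals of 64.3 to 507 (median 146), and those nearer to a tRNA start 61.6 to 166 (median 96.2). The 2 ranges overlap, but all signals above 166 were in the first group. Of the first group, 8 of 13 peaks had a counterpart in the thresholded sets of both replicates, and of the second 2 of 13.

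**Figure D2:**
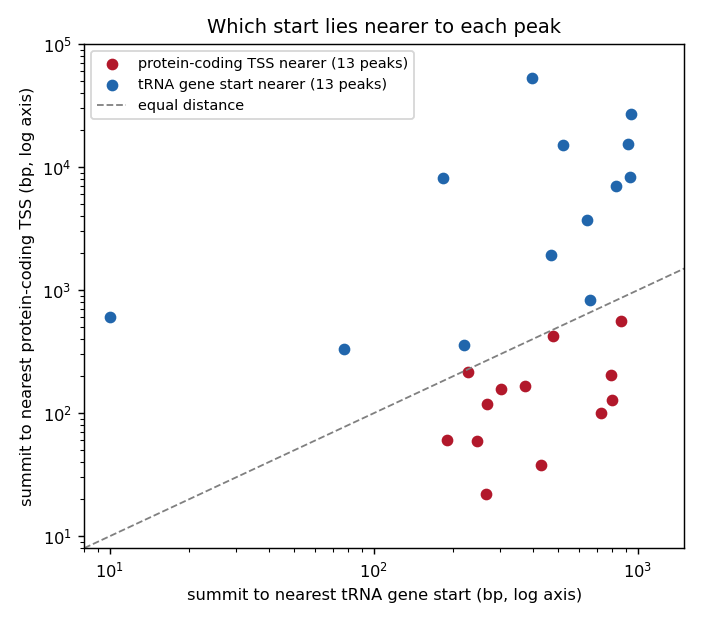
Each of the 26 main-set peaks that are the nearest of a tRNA gene and within 1000 bp of its start, by the distance in bp of its summit to the nearest tRNA gene start (horizontal, log axis) and to the nearest protein-coding TSS (vertical, log axis). Red points below the dashed line of equal distance are the 13 peaks nearer to a coding TSS, and blue points above it are the 13 nearer to a tRNA start.

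The strongest peaks near tRNA genes had a protein-coding TSS nearer to the summit than the tRNA start. Among tRNA genes with a summit over 100 and up to 500 bp away, tRNA:Phe-GAA-1-2, a phenylalanine tRNA gene, had the highest signal, 507, with 228 in replicate 1 and 280 in replicate 2 (mean 254 ± 36.6, SD, n = 2). Its summit lay 246 bp downstream of the tRNA start and 59 bp from a TSS of RpL17, which encodes a protein of the large ribosomal subunit. tRNA:Tyr-GTA-1-8, a tyrosine tRNA gene in an intron of CG8036 on the opposite strand, came second with 462 (222 in replicate 1 and 227 in replicate 2; mean 225 ± 2.99, SD, n = 2). Its summit was 227 bp upstream (-227) and 217 bp from a TSS of CG8036, so both starts were nearly equally far. The same peak was the nearest one of tRNA:Tyr-GTA-1-7, 696 bp upstream (-696). The Phe and Tyr peaks had ranks 250 and 304 among the 5115 main-set peaks by signal.

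An aspartate pair, tRNA:Asp-GTC-1-5 (267 bp) and tRNA:Asp-GTC-1-4 (-405 bp), shared a peak of signal 215, 119 bp from a TSS of Sema1a, a semaphorin gene of axon guidance. Replicate 1 had 89.1 and replicate 2 had 120 (mean 104 ± 21.8, SD, n = 2). tRNA:Leu-TAA-2-1, a leucine tRNA gene, had a summit 219 bp upstream (-219) with a signal of 166, or 77.6 in replicate 1 and 80.4 in replicate 2 (mean 79.0 ± 1.99, SD, n = 2). This was the highest signal of a peak nearer to a tRNA start than to a coding TSS, and a TSS of CG13605 was 356 bp away. Its replicates differed by less than those of the Asp peak, and both thresholded replicate sets held it.

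The summits of these 4 peaks are shown with 50 bases to either side, because they had the highest signals among peaks over 100 and up to 500 bp from a tRNA start. Each is on the strand of its tRNA gene, 5′ to 3′, from the RefSeq copy of dm6, with the summit at base 51. The windows are chrX:6744247-6744347 (minus strand), chr3R:8669351-8669451 (minus), chr2L:8541978-8542078 (plus) and chr3R:24112695-24112795 (plus). Capitals mark any of the letters searched for, which are named after the sequences.
tRNA:Phe-GAA-1-2: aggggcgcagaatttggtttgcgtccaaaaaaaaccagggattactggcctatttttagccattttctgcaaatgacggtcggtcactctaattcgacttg
tRNA:Tyr-GTA-1-8: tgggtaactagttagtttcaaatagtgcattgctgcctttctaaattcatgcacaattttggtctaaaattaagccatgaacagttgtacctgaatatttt
tRNA:Asp-GTC-1-5: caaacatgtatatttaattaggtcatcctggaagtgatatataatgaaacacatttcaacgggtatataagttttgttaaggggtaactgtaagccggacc
tRNA:Leu-TAA-2-1: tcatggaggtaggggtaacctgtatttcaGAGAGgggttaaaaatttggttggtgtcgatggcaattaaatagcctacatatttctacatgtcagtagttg
None of these windows reaches into the tRNA gene.

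The same windows around all 26 summits were searched on both strands for 4 short sequences. The letters GTTCGA, the form of the B box core searched for, were in 3 of 26 windows (11.5%), against 3.23% of the 5115 main-set summits. These were the windows near tRNA:His-GTG-1-3, tRNA:Trp-CCA-2-2 and tRNA:Ala-TGC-2-1, and none of the 3 reaches into the gene it is named for. The DNA replication-related element TATCGATA, a core promoter sequence of Drosophila housekeeping genes, was in 1 (3.85%, against 1.56%), in the Trp-CCA-2-2 window. The letters GGTCACAC of Motif 1, another housekeeping promoter sequence, were in 1 (3.85%, against 0.860%), the window near tRNA:Arg-TCT-1-1. GAGAG, which the GAGA factor is known to bind, was in 2 (7.69%, against 9.01%). The counts are small, and a match is a description of letters. The searched sequences do not contain each other. The median GC content was 36.1% in the 26 windows, 33.7% at all main-set summits and 58.3% in the tRNA genes themselves.

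The further members up to 500 bp away had signals between 70.2 and 154. tRNA:His-GTG-1-3 had 154 (86.3 in replicate 1, 61.9 in replicate 2), with its summit 61 bp from a TSS of CG8490. tRNA:Val-CAC-2-5, in an intron of the nicotinamidase gene Naam, had 146 (59.5 and 87.2), with a Naam TSS 424 bp from the summit. tRNA:Trp-CCA-2-2 had 144 (63.2 and 76.6), 22 bp from a TSS of CG30122. These 3 peaks were in the thresholded sets of both replicates, and each summit was nearer to a coding TSS.

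A different pattern was seen for tRNA:Ala-TGC-2-1, with 117 (37.8 in replicate 1, 83.5 in replicate 2; mean 60.7 ± 32.4, SD, n = 2), and tRNA:Gln-TTG-2-1, with 107 (41.5 and 58.3; mean 49.9 ± 11.8, SD, n = 2). Their summits were nearer to the tRNA start, and the closest coding TSSs were 1911 and 8102 bp away. Both were in the thresholded set of replicate 2 alone. The Ala peak had the widest spread between replicates of the 26, an SD of 53.3% of the mean, against a median of 14.3%. The remaining 5 members at this distance had signals of 70.2 to 99.9. Of these, named after their values were seen, tRNA:Ile-AAT-1-3 (99.9) was near a TSS of the flippase gene ATP8A, tRNA:Pro-CGG-2-1 (84.0) near Bx and tRNA:Gly-GCC-1-13 (87.3) near tud. tRNA:Asp-GTC-1-6 (70.2) had its closest coding TSS 53068 bp from the summit, and tRNA:Val-CAC-1-1 shared the Pro-TGG peak.

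Over 500 and up to 1000 bp away, the strongest were tRNA:Tyr-GTA-1-7 (462, the CG8036 peak) and tRNA:Val-TAC-1-1 (312; 165 in replicate 1, 146 in replicate 2). The Val summit was 793 bp upstream of the tRNA (-793) and 204 bp from a TSS of CG46456. tRNA:Arg-TCT-1-1 (723 bp) and tRNA:Met-CAT-1-1 (-933 bp) shared a peak of 165 (87.6 and 67.5) that lay 100 bp from a TSS of CG9003. tRNA:His-GTG-1-2 (-950 bp) shared the CG8490 peak of its neighbour. All 5 had a coding TSS nearer. Just beyond the limit, tRNA:His-GTG-2-1Psi was at 1005 bp (81.0) and tRNA:Met-CAT-1-2 at -1025 bp (164), while the last member inside was tRNA:His-GTG-1-2.

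**Figure D3:**
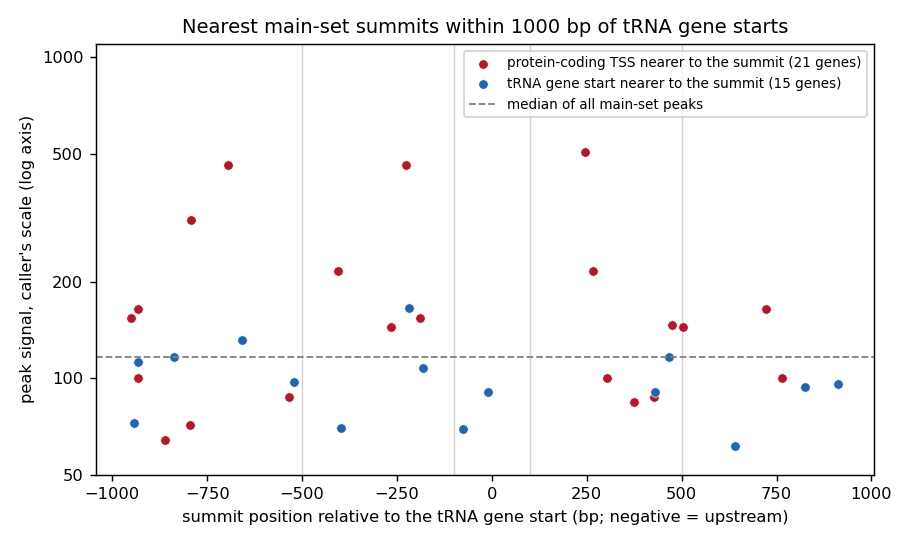
Main-set peak signal (caller's scale, log axis) against the position of the nearest summit relative to the tRNA gene start, in bp with upstream negative, for the 36 genes with a summit within 1000 bp. Grey vertical lines mark 100 and 500 bp. Red points, 21 genes with a coding TSS nearer to the summit, reach 507, and blue points, 15 genes with the tRNA start nearer, reach 166.

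The summits kept no fixed place relative to tRNA genes. In bins of 100 bp from 1000 bp upstream to 1000 bp downstream, the main set gave 0 to 5 summits per bin over the 295 genes, with 2 in the bin just upstream of the start and 0 in the 2 bins from the start to 199 bp downstream. Over protein-coding genes the same bins gave 5.25 summits per 100 genes over 100 and up to 200 bp upstream, 4.43 in the last 100 bp before the start and 0.258 at 200 to 299 bp downstream. For tRNA genes the value was 0.678 per 100 genes in both upstream bins. Of the nearest summits within 500 bp, 9 were upstream and 8 downstream of the tRNA start, and of those over 500 and up to 1000 bp away 13 were upstream and 6 downstream, with shared peaks counted once per gene.

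**Figure D4:**
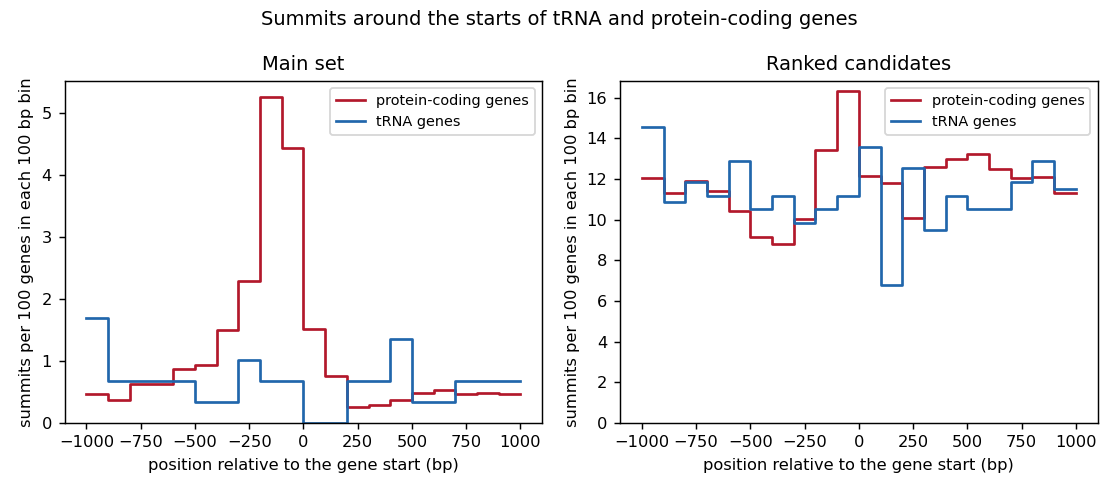
Summits per 100 genes in bins of 100 bp around the gene start (bp, upstream negative) for tRNA genes (blue) and protein-coding genes (red), in the main set (left) and the ranked list (right). The main-set line of protein-coding genes rises to 5.25 just upstream of the start, that of tRNA genes does not exceed 1.69, and in the ranked list both stay between 6.78 and 16.3.

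Nearness to protein-coding genes moved with these counts. The start of 80 tRNA genes lay within 1000 bp of a protein-coding TSS, and 13 of them (16.2%) had a summit of the main set within 500 bp. Of the 215 tRNA genes farther from coding TSSs, 4 had one (1.86%). Among ncRNA genes the shares were 8.97% of 936 near a coding TSS and 3.91% of 2325 farther away, and among snoRNA genes 11.8% of 85 and 3.26% of 184. Both tRNA genes with a summit within 100 bp were among the 80. The part of this nearness in the tRNA counts was not tested beyond these shares.

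Shares were close inside and outside introns. Of 130 tRNA genes in an intron of a protein-coding gene, 7 had a summit of the main set within 500 bp (5.38%), and of the 165 others 10 had one (6.06%). Within 1000 bp the shares were 10.8% and 13.3%. An exon of a protein-coding gene overlapped 7 members.

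tRNA genes formed 146 groups when neighbours up to 5000 bp apart were joined. There were 77 single genes, of which 13 (16.9%) had a peak of the main set within 1000 bp. In 58 clusters of 2 to 4 genes 16 of 140 genes did (11.4%), and in 11 clusters of 5 or more 7 of 78 did (8.97%). In all, 26 groups had a summit near a member. Over all tRNA genes the share with a main-set summit within 1000 bp was 12.2%, against 18.1% of other genes of any type. A candidate within 500 bp, as counted for the clusters below, was present for 72.9% of tRNA genes and 73.3% of other genes. Of the 2 clusters of 11 genes, the one at 3R:17617761-17631750 (Ala, Pro, Thr and Val genes) held the Pro-TGG-1-1 peak and no other main-set peak within 1000 bp of a member. The one at 2R:6161535-6171759 (Arg, Asn, Ile and Lys genes) had no main-set summit and no candidate within 500 bp of any of its 11 genes. The nearest candidates were 3481 to 10485 bp from their starts, and whether peaks could be called in this stretch was not tested. A cluster of 8 genes at 2R:19725620-19729353 (Glu and initiator Met genes) had no main-set summit near any gene and a candidate for 4 of 8. Of 2 clusters of 7, the one at X:14014814-14017284 (Arg and Ser genes) had candidates at all 7 and no main-set summit. The one at 2R:13430282-13432794 (Ile and Leu genes, inside ATP8A) had a main-set peak of signal 99.9 as the nearest of 3 of its genes, besides the weaker one 946 bp from tRNA:Ile-AAT-1-3.

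By chromosome arm, those with a peak of the main set within 500 bp were 3 of 41 on 2L, 5 of 100 on 2R, 0 of 49 on 3L, 6 of 79 on 3R and 3 of 26 on X, and chromosome 4 carries no member. Other genes had shares of 13.1 to 15.5% on the 5 large arms. On 3L there were 4 members with a summit within 1000 bp, so the arm was not without peaks near tRNA genes. By amino acid, the 36 genes covered 16 of the 22 groups of symbols. Asp genes had most within 500 bp, 3 of 14, of which 2 share the Sema1a peak, followed by Pro (2 of 17) and Val (2 of 15). The Pro and Val counts both include the Pro-TGG-1-1 peak. Over all members the share within 500 bp was 5.76%, against 14.2% of other genes, and the counts per amino acid are small. No gene for Asn (10), Cys (7), Lys (19), Ser (20), initiator Met (6) or selenocysteine (1) had a peak of the main set within 1000 bp. Over all members that share was 12.2%, against 18.1% of other genes.

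Both replicates had a ranked peak at each site, but their thresholded sets often lacked it. All 15 peaks within 500 bp of a tRNA start had a peak with a summit within 100 bp in the ranked lists of both replicates. In the thresholded sets, 7 of the 15 were in both replicates, 1 in replicate 1 alone, 3 in replicate 2 alone and 4 in neither. Of the 26 nearest peaks within 1000 bp, 10 were in both and 8 in neither. Of all main-set peaks 53.3% were in both and 23.7% in neither. Replicate 2 was the higher one for 13 of the 15 peaks within 500 bp and for 16 of the 26 within 1000 bp, on caller scales that were not equalised.

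**Figure D5:**
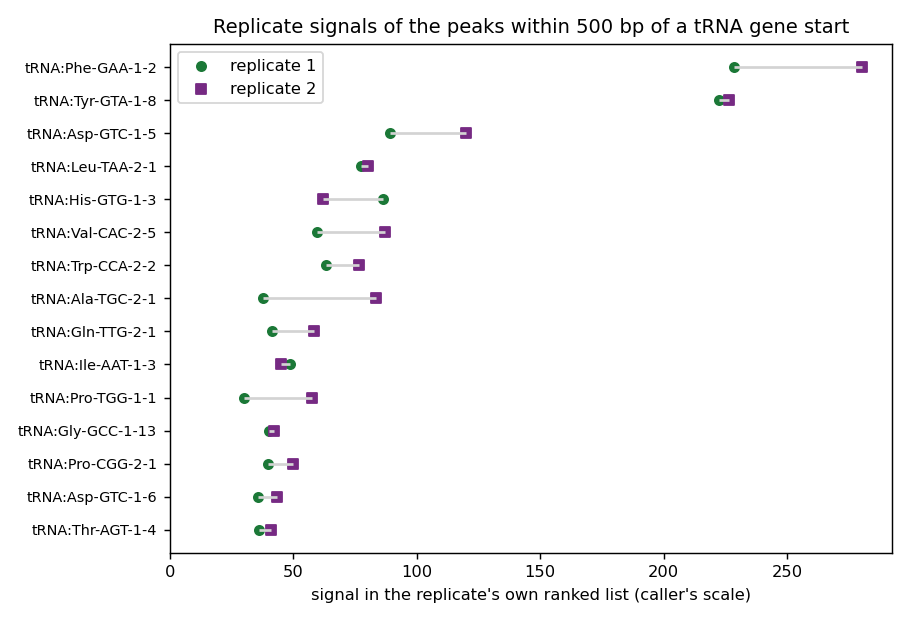
Signal in each replicate's own ranked list (caller's scale, axis from 0) for the 15 main-set peaks within 500 bp of a tRNA start, labelled by the nearest tRNA gene and ordered by series signal. Circles are replicate 1 and squares replicate 2, and a grey line joins the pair. Apart from the Phe-GAA-1-2 and Tyr-GTA-1-8 peaks, all values lie between 30.1 and 120.

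Candidates of any strength, main-set peaks included, stood at nearly the same share of tRNA genes as of other genes. The ranked series list, which has no threshold, held 121431 peaks on the arms with a median signal of 23.1. A candidate summit lay within 100 bp of 73 tRNA genes (24.7%), against 26.6% of other genes, and within 500 bp of 215 (72.9%), against 73.3%. These counts include summits of main-set peaks, which were less frequent within 500 bp of tRNA genes (5.76%) than of other genes (14.2%). They are therefore not shares of weaker candidates alone. The shares differed by copy number. Within 500 bp they were 87.7% for tRNA genes with a sequence of their own and 69.3% for those with an identical copy. Within 100 bp they were 33.3% and 22.7%. The cause of this difference was not tested. Of tRNA genes with a candidate within 500 bp, 7.91 per 100 also had a main-set summit there, against 19.3 per 100 of other genes. Of the 259 members with none of the main-set peaks within 1000 bp, 183 (70.7%) had a candidate within 500 bp, against 9978 of 14638 other genes (68.2%). The strongest such candidate had a median signal of 33.2 (2.69 to 88.8), and for those 9978 other genes the median was 31.5. The irreproducible discovery rate (IDR) estimates the share of peaks not repeated between replicates, and a threshold of 0.01 was used here. None of the 183 had a candidate within 0.01 and 7 had one within 0.05, the lowest value being 0.0170. No ranked peak that met the threshold but was left out of the main set lay within 1000 bp of a tRNA start.

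The 5 members whose candidate had the highest signal had unequal replicate values. tRNA:Glu-TTC-1-5, in the cluster of 8 genes, had a candidate of 88.8 at 231 bp, with 9.56 in replicate 1 and 45.3 in replicate 2 and an IDR of 0.737. tRNA:Ser-AGA-2-4 had 68.2 at 109 bp (34.2 and 2.80, IDR 0.743). tRNA:Asp-GTC-2-1 (-39 bp) and tRNA:Asp-GTC-1-1 (450 bp), in an intron of the Dpp receptor gene tkv, shared one of 66.8 (18.3 and 45.8, IDR 0.639). tRNA:Lys-TTT-1-1, in an intron of the tyrosine kinase gene Btk, had 66.9 at 368 bp (25.4 and 41.9, IDR 0.0382). This Lys candidate had the lowest IDR of the 5. The signals of all 5 were below the main-set median of 116, and their IDRs were above the threshold.

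Among other genes of RNA polymerase III, the 7SK and U6 classes had peaks nearby. None of 96 5S rRNA genes had a peak of the main set within 1000 bp, against 18.1% of other genes of any type. Of the 96, 1 had a candidate within 500 bp, against 73.3% of those other genes. These genes stand in a repeated array. Candidates were nearly absent from it too, and whether peaks could be called there was not tested. None of 2 7SL genes, the RNase P RNA gene or the RNase MRP RNA gene had a main-set summit within 1000 bp. The RNase P RNA and RNase MRP RNA genes each had a candidate, 98 and 119 bp from their starts. snRNA:7SKa had a summit at 233 bp (signal 90.7), inside the gene, and the other 7SK gene had none. A TSS of CG1142 was 982 bp from the 7SKa summit. The 3 U6 spliceosomal RNA genes lie together on 3R, and a peak of signal 134 stood 110 bp upstream of snRNA:U6:96Ac (-110) and 413 bp downstream of snRNA:U6:96Ab. The closest coding TSS to that summit was 8088 bp away.

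Genes that encode the transcription machinery of tRNA genes, by contrast, carried peaks at a share near that of coding genes in general. Of 30 listed genes for RNA polymerase III subunits, its factors and tRNA maturation, 27 matched the annotation by symbol, and 7 of the 27 (25.9%) had a summit within 500 bp of one of their TSSs, against 18.9% of all protein-coding genes. The strongest were Bdp1 (signal 475, -62 bp) and Brf (355, -158 bp), which encode subunits of TFIIIB. The polymerase subunit genes Polr3E and Polr3F had 179 (-281 bp) and 86.8 (14 bp). RNaseZ, which trims the 3′ end of tRNA precursors, had 81.2 (-28 bp), and Pbp95, of the snRNA activating complex, had 58.0 (-23 bp). The largest subunit genes Polr3A and Polr3B, Trf and Tbp of the TBP family, the repressor gene Maf1 and La, whose protein binds new RNA polymerase III transcripts, were among the 20 with none.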

How the data were processed

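Peak lists of 2 biological replicates of 1 group were used: per the deposited text beside the samples, 8 lists of peaks called on dm6 from the replicate alignments and a control alignment, ranked by IDR, 4 of them thresholded. No aligner or caller is named: not given in the sources used here. The deposited signal is the caller's value, compared within a list only. The deposited summit column (unit other) counts bp from the peak's first base to its summit. Ranked lists carry a deposited IDR as a −log10 value. No read counts are given, so depth and limits that need it are unknown.

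Summits (1-based) were set against gene starts of Ensembl release 115 (BDGP 6.54) on the 6 arms, by the nearest summit. The ranked series peaks ended within the dm6 chromosome lengths. Coding TSSs were those of all transcripts. A replicate's value is the peak of its own ranked list with a summit within 100 bp of the series summit. Clusters joined neighbours up to 5000 bp apart. Motif windows reached 50 bp to either side. Distance classes were checked on simulated data. Python 3.11.15, numpy 2.4.6, matplotlib 3.10.9 and pandas 2.3.3 did the work. With 1 group, no test was made.

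Named were every gene with a summit within 100 bp, the 10 strongest over 100 and up to 500 bp away, the 5 strongest over 500 and up to 1000 bp away, the 5 largest clusters, the 5 strongest candidates without a main-set summit, and the coding genes nearer to those summits. Members and lists were chosen with earlier results of these data known. Of the listed machinery genes, 3 symbols were not matched and are not analysed here, and the value of 1 counted gene is not reported here. Alternatives were the other series set, each replicate's own set, peaks above the main-set median signal, other reference points, other TSS sets, cluster gaps of 2000 and 10000 bp, other ranked lists and, added after seeing the data, members without pseudogenes.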

Additional observations from a re-analysis of the deposited data

How the results depend on the processing

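No paired analysis was possible because the 2 replicates form a single group. Of 46 alternative values, 31 stayed within 1.5 times the reported count or, for the median signal, within the spread of the replicates, and 15 moved. The cause was not tested. The 2 genes with a summit within 100 bp became 1 in the relaxed series set, 0 among peaks above the main-set median signal and 6 when the nearest base of the peak was used. Leaving out a replicate gave 0 (set of replicate 1) to 2 (set of replicate 2), and neither of those 2, tRNA:Asp-GTC-2-1 and tRNA:Ser-TGA-2-1, is one of the reported pair. Within 500 bp, the 17 genes became 9 among those above the median and 11 to 17 without a replicate, and 15 of the 17 were kept in the relaxed set, while the set of replicate 1 kept 9 and the set of replicate 2 kept 11. Within 1000 bp, the 36 became 17 among those above the median and 24 to 28 without a replicate. In these sets the share of tRNA genes within 500 bp stayed below that of other genes: 3.73% against 11.7% for replicate 1, 5.76% against 11.5% for replicate 2 and 5.76% against 15.9% in the relaxed set. The 21 of 36 genes with a coding TSS nearer became 13 of 17 among those above the median. They became 17 of 24 in the set of replicate 1 and 15 of 28 in the set of replicate 2. With only the 5′ ends of protein-coding genes as TSSs they became 15 of 36, and from the nearest base of the peak 18 of 39. The 26 clusters with a summit became 11 among those above the median and 16 to 19 without a replicate, and stayed at 26 with gaps of 2000 and 10000 bp. The 183 members with a candidate became 63 with candidates within 100 bp and 149 to 215 without a replicate. The median signal of 104 over the 26 nearest peaks became 60.1 to 67.7 in the replicates' own sets, whose scale differs from that of the series set. The 7 intronic genes became 2 among those above the median and 4 to 8 without a replicate. The signal limits what is said of the pair within 100 bp, since both peaks are below the main-set median and in neither replicate's own set.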
